A study of Mus musculus with 2 samples.

Results

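The miR-30 family was followed through the small RNAs of mouse liver, as every listed miRNA named miR-30 with a letter from a to e, on either arm and at any copy. Of 197 distinct named miRNAs in the series, 9 met this rule: 5 from the 5p arm of their hairpins (miR-30a, miR-30b, miR-30c, miR-30d and miR-30e) and 4 from the 3p arm (miR-30a-3p, miR-30c-1-3p, miR-30c-2-3p and miR-30e-3p). All 9 were listed in both libraries, at 10 loci in replicate 1 and 9 in replicate 2. The livers came from wild-type C57BL/6 mice, 2 to 3 months old and fed ad libitum, which form 1 group of 2 replicates with no treated or fasted counterpart. The series title names miRNAs that control metabolic master regulators as the subject.

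A miRNA is cut from a hairpin whose 5′ side (5p) and 3′ side (3p) can each yield a mature strand, and the strand that is kept guides repression of mRNAs through its seed, the bases from position 2 to 8. The miR-30 5p strands share 1 seed and so are thought to recognise overlapping sets of mRNAs. Among the mRNAs reported as targets are Mttp, the transfer protein that loads lipid onto lipoproteins in hepatocytes and that is attributed to miR-30c, the autophagy gene Becn1, the matrix-associated gene Ccn2 and the transcription factor gene Snai1.

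The listed mature sequences are shown first, because every comparison below turns on how few bases separate them. They are written 5′ to 3′ as deposited, with the seed in capitals. The 5p sequences were the same in both libraries.
mmu-miR-30a-5p: uGUAAACAuccucgacuggaagcu
mmu-miR-30d-5p: uGUAAACAuccccgacuggaagcu
mmu-miR-30e-5p: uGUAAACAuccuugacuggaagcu
mmu-miR-30c-5p: uGUAAACAuccuacacucucagcu
mmu-miR-30b-5p: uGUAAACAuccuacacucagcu
mmu-miR-30a-3p: cUUUCAGUcggauguuugca
mmu-miR-30e-3p: cUUUCAGUcggauguuuac
mmu-miR-30c-1-3p: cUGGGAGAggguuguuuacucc

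All 5 of the 5p strands carried the same 7-base seed, and their first 11 bases were identical. With positions counted from 1 at the 5′ end, miR-30d-5p differed from miR-30a-5p by the single substitution U12C, and miR-30e-5p differed from miR-30a-5p by C13U. miR-30c-5p and miR-30b-5p shared their first 18 bases and stood apart from the other 3, with 5 differences between miR-30a-5p and miR-30c-5p over 24 bases. The 3p strands fell into another 2 seeds, one shared by miR-30a-3p and miR-30e-3p and one by both miR-30c 3p strands. The RefSeq table used here (GRCm38.p6) held 4 mature names with the 5p seed, miR-30a-5p, miR-30c-5p, miR-30e-5p and miR-384-5p. It had no entry for Mir30b or Mir30d, so their strands could not be among them. The deposited files listed 5 names with the seed, all of them in the family. miR-384-5p, the relative outside the family with the same seed, was not listed in either library, and neither was miR-30f, whose hairpin lies on the strand opposite Mir30e. Since the files list called loci only, this sets no upper limit on either.

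The 6 hairpins lay in pairs at 3 places in the genome (GRCm38, GENCODE M21 annotation). On chromosome 1, Mir30a (23272269 to 23272339, plus strand) and Mir30c-2 (23291701 to 23291784, plus strand) were 19.4 kb apart. Mir30c-2 lay in exon 1 of the long non-coding RNA Gm27028, and the nearest protein-coding gene to Mir30a, Ogfrl1, was 94.1 kb away on the opposite strand. On chromosome 15, Mir30b (68337415 to 68337510, minus strand) and Mir30d (68341208 to 68341289, minus strand) were 3.70 kb apart, and Mir30d lay in exon 3 of the long non-coding RNA Gm20732. The annotation also gave Gm37296 at Mir30d and the processed transcript Gm26621 at Mir30b, both on the minus strand. Mir30b was placed in neither an exon nor an intron of Gm26621. On chromosome 4, Mir30c-1 (120769534 to 120769622, minus strand) and Mir30e (120772606 to 120772697, minus strand) were 2.98 kb apart in the same intron of Nfyc, on its strand. Nfyc encodes a subunit of the CCAAT-binding factor NF-Y, and both hairpins were intronic in 6 of the 6 Nfyc transcripts that span them (intron 5 of a principal transcript with 10 exons). No other listed locus lay within 10 kb of any of the 6 hairpins.

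The named miRNAs held 306351 counts in replicate 1 and 538023 in replicate 2, so every share below rests on a library 1.76-fold deeper in replicate 2. The tissue label was checked on markers. All 4 hepatocyte miRNAs on the marker list were listed, with 4.79% and 5.11% of named counts, and miR-122-5p alone had 2.50% and 3.04%. Markers of endothelial, immune, erythroid, stellate and biliary cells lay between 0% and 0.554% in replicate 1 and between 0.00260% and 0.342% in replicate 2. Some of these lists were mostly unlisted: replicate 1 had 0 of 4 erythroid, 2 of 6 immune and 1 of 5 biliary markers. Because only called loci are listed, the low sums set no upper limit on the unlisted markers. Of the non-hepatocyte lists, immune and stellate were the highest. They held 0.341% and 0.554% in replicate 1 against 0.212% and 0.342% in replicate 2. As shares of named counts, both were lower in replicate 2, as the endothelial list (0.0444% and 0.0355%) and the miR-30 family were. The hepatocyte, biliary and erythroid lists were higher there. In the test between libraries below, the stellate marker miR-145a-5p was lower (log2 ratio -1.24). The stellate markers miR-143-3p (0.12) and miR-214-3p (0.31) did not pass, and miR-199a-5p was listed in replicate 2 only. Both listed immune markers were lower. The part of these cell types in the family's difference was not tested. The labels do not state whether 2 animals were used, so differences between the libraries may be technical. The p-values below weigh differences against counting error only.

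Levels within the liver came first, that is how much of the miRNA the family made up and how its members ranked. The family took 10.9% of named counts in replicate 1 (95% Clopper-Pearson interval 10.8 to 11.0) and 8.91% in replicate 2 (8.83 to 8.99), a mean of 9.89% ± 1.39 (SD, n = 2). Nearly all of it was the 5p strands, at 9.87% ± 1.39, while the 4 listed 3p strands together took 0.0223% ± 0.00312. These are shares of counts with no calibration to known amounts and no correction for length, and the intervals cover counting error alone.

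miR-30a-5p led the family with 15347 counts in replicate 1 and 21867 in replicate 2, which are 5.01% (4.93 to 5.09) and 4.06% (4.01 to 4.12) of named counts. It ranked 4 and 6 among all named miRNAs of the libraries. miR-30d-5p had 13695 and 19955 counts, or 4.47% (4.40 to 4.54) and 3.71% (3.66 to 3.76), and ranked 6 and 7. Both strands had lower shares in replicate 2, and their ranges over the libraries overlapped. Within each library miR-30a-5p was ahead, 1.12-fold and 1.10-fold. It made up 52.8% (52.3 to 53.4) and 52.3% (51.8 to 52.8) of the pair's counts, so this small gap exceeded counting error in both. They differ by 1 base, and how reads were assigned between them is not given.

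miR-30c-5p, the strand linked to Mttp, followed with 2712 and 3835 counts, or 0.885% and 0.713% (mean 0.799% ± 0.122, SD, n = 2), and ranked 19 in both libraries. miR-30e-5p, from the Nfyc intron, had 1164 and 1736 counts, or 0.380% and 0.323% (0.351% ± 0.0405). miR-30b-5p, the neighbour of miR-30d on chromosome 15, had 330 and 431 counts, or 0.108% and 0.0801% (0.0939% ± 0.0195), and ranked 48 in both. From miR-30d-5p down to miR-30c-1-3p each member lay above the next in both libraries with no overlap. The steps in mean share were 5.12-fold from miR-30d-5p to miR-30c-5p, 2.27-fold to miR-30e-5p, 3.74-fold to miR-30b-5p and 5.06-fold to miR-30c-1-3p.

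The 3p strands closed the order. miR-30c-1-3p had 63 and 89 counts, which is 0.0206% (0.0158 to 0.0263) and 0.0165% (0.0133 to 0.0204). miR-30a-3p had 6 and 9 counts, miR-30e-3p had 3 and 6, and miR-30c-2-3p had 3 and 4. The counting intervals of these last 3 overlapped in each library, so no order among them was detectable at this depth. The 3p strands of Mir30b and Mir30d were not listed in either library.

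**Figure D1:**
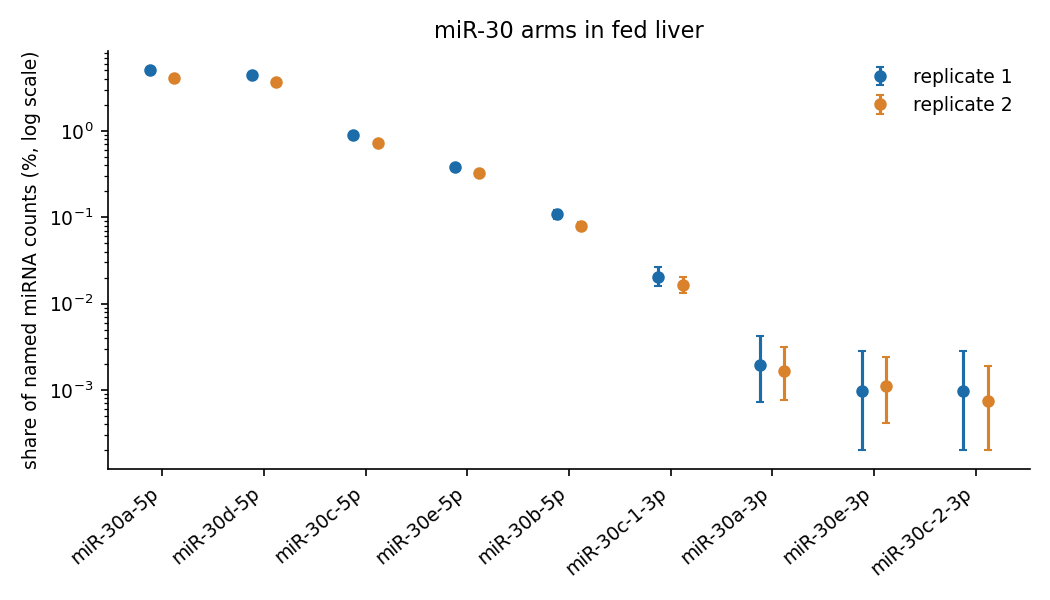
Share of named miRNA counts (percent, log scale) for the 9 listed miR-30 strands, 1 point per library with its 95% Clopper-Pearson counting interval. The 5p strands run from 5.01% down to 0.0801%, and the intervals of the 3 lowest 3p strands overlap.

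Against miRNAs outside the family, the nearest in level over the 2 libraries (distance in log2 CPM, counts scaled to a common library size) was miR-191-5p for both miR-30a-5p (0.22) and miR-30d-5p (0.37). It held 4.90% and 4.71% of the libraries. miR-30e-5p lay closest to miR-194-5p (0.06) and miR-351-5p (0.22), and miR-30b-5p to miR-186-5p (0.16) and miR-31-5p (0.17). miR-30c-5p had no equally close neighbour, with miR-125b-5p at 0.53 and let-7d-3p at 0.70. The second neighbours of miR-30a-5p and miR-30d-5p were miR-26a-5p (0.66) and miR-181a-5p (0.55). With 2 libraries this measures likeness of level and nothing more.

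The counts were then divided over the 3 loci. Chromosome 1 held 5.90% and 4.78% of named counts where the files place them (mean 5.34% ± 0.791, SD, n = 2), chromosome 15 held 4.58% and 3.79% (4.18% ± 0.558), and the Nfyc intron held 0.402% and 0.340% (0.371% ± 0.0433). As shares of the family these were 54.2% and 53.6% for chromosome 1, 42.1% and 42.5% for chromosome 15, and 3.69% and 3.82% for chromosome 4. The ranges of chromosome 1 and chromosome 15 met neither each other nor that of chromosome 4 when miR-30c-5p was counted on chromosome 1. With miR-30c-5p left out, chromosome 1 had 5.01% and 4.07%, a range that overlapped that of chromosome 15 although chromosome 1 was higher within each library. On chromosome 15 Mir30d carried most counts, and the ratio of miR-30d-5p to miR-30b-5p was 41.5 in replicate 1 and 46.3 in replicate 2.

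The place of miR-30c-5p is an assignment and not a measurement, because its sequence is the same in Mir30c-2 and Mir30c-1. The files list all but 1 of its counts on chromosome 1. The remaining count, in replicate 1, stood at Mir30c-1 with a listed sequence that began 2 bases before the RefSeq start and differed from the hairpin there by U15G (positions from 1 at the 5′ end of the RefSeq hairpin). The 3p strands of the 2 hairpins do differ, so their counts can be told apart by locus. Their RefSeq sequences are shown for that reason, with the bases that differ in capitals.
miR-30c-1-3p: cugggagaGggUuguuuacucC
miR-30c-2-3p: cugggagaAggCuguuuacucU

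The 3 differences are G9A, U12C and C22U from miR-30c-1-3p to miR-30c-2-3p, of which the first 2 lie within every listed 3p sequence. By these strands the order of the 2 hairpins was the reverse of the listed 5p placement. Mir30c-1 in the Nfyc intron had 63 counts against 3 for Mir30c-2 in replicate 1, or 95.5% of miR-30c 3p counts (87.3 to 99.1). In replicate 2 it had 89 against 4, or 95.7% (89.4 to 98.8). Neither value says how the 5p strands divided. Counting miR-30c-5p on chromosome 4 would raise that locus from 0.371% to 1.17% of named counts, with 1.29% and 1.05% in the libraries, and would still leave it below the other loci.

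**Figure D2:**
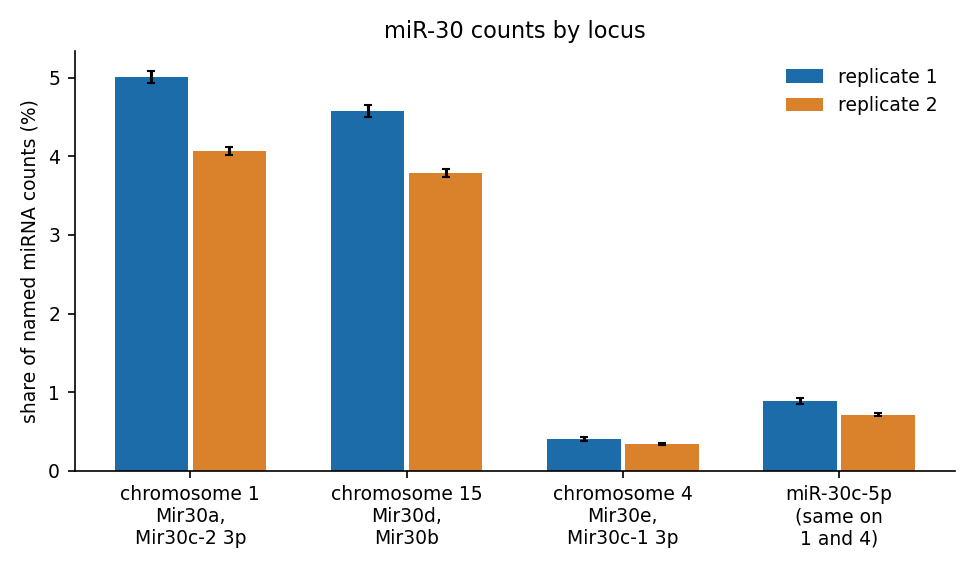
Share of named miRNA counts (percent) at each miR-30 locus, 1 bar per library with 95% counting intervals, and with miR-30c-5p drawn apart because chromosome 1 and chromosome 4 encode the same sequence. Chromosome 1 (5.01% and 4.07%) and chromosome 15 (4.58% and 3.79%) stand above chromosome 4 (0.402% and 0.340%).

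Each hairpin was also examined for the arm it kept. Of the 47 hairpins in the series with both arms listed in both libraries and at least 20 counts over both arms in each, 42.6% were dominated by their 5p arm in both libraries (2-sided exact binomial test against equal shares, Benjamini-Hochberg adjusted p under 0.05). All 3 miR-30 hairpins that could be tested were among them. Mir30c-2 could be tested only because the files place miR-30c-5p there, a sequence that Mir30c-1 also encodes. Its 3p strand alone had 3 and 4 counts. Mir30c-1 could not be tested. As listed it had 63 and 89 counts on 3p, and on 5p only 1 count, in replicate 1. Mir30a and Mir30e do not depend on that placement. Mir30a had 99.96% of its counts on 5p in both libraries and Mir30c-2 had 99.89% ± 0.00446 (SD, n = 2), as placed by the files. Mir30e had 99.7% ± 0.0618, with 388 and 289 counts on 5p for each on 3p. By mean 5p share they ranked 4, 5 and 11 of the 47.

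Arm shares differed between the libraries in 8.51% of the 47 hairpins (2-sided Fisher's exact test, adjusted), and in 0 of the 3 miR-30 hairpins, of which none had an unadjusted p under 0.05. The 3p arms of these 3 hairpins had 3 to 9 counts in each library, so only a large change in arm share could have passed. For both miR-30c hairpins combined, the 5p share was 97.6% in both libraries (97.0 to 98.2 and 97.1 to 98.1), which is a 3p share of 2.37% in each. Over the whole family the 3p strands made up 0.225% of counts in replicate 1 and 0.225% in replicate 2. Mir30c-1 gave most of the family's listed 3p counts, with 63 of 75 and 89 of 108.

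The members were next compared between the replicate libraries, singly and with each other. The test compares 2 libraries of 1 group and not conditions. Of 131 miRNAs tested, 44.3% differed beyond counting error, 22.9% lower and 21.4% higher in replicate 2 (2-sided exact binomial test at TMM library sizes, Benjamini-Hochberg over all 131). Among the 73 with at least 100 counts in each library, 32.9% were lower. Of the 44 5p strands at that depth, 21 were lower and 10 higher. Of the 7 miR-30 strands tested, 4 were lower, none was higher and 3 did not pass; miR-30e-3p and miR-30c-2-3p had under 10 counts summed and were left out.

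The differences were small. The log2 ratio of replicate 2 to replicate 1 was -0.14 for miR-30a-5p (counting SE 0.015, adjusted p = 8.68e-19 by the exact binomial test), which is 0.909-fold. It was -0.11 for miR-30d-5p (adjusted p = 2.12e-10), -0.15 for miR-30c-5p (0.000146) and -0.26 for miR-30b-5p (0.0315) in the same exact test. miR-30e-5p (-0.07, adjusted p = 0.302), miR-30c-1-3p (-0.15, 0.720) and miR-30a-3p (-0.10, 1) did not pass the exact test. All 7 ratios were negative, with a median of -0.14 against -0.03 over all 131 miRNAs, of which 68 were negative. The 95% counting intervals of miR-30e-5p, miR-30c-1-3p and miR-30a-3p included 0. At 100 counts or more in each library, 28 of all 44 5p strands were negative, among them 8 of 8 let-7 5p strands. edgeR's common biological coefficient of variation over the tested miRNAs was 0.229, and the lowest ratio of a member, that of miR-30b-5p, was 0.833-fold.

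Scaling set how many passed. With total named counts as library sizes the median of all miRNAs moved by -0.16, from -0.03 to -0.19, the split over all miRNAs went from 28 higher and 30 lower to 19 higher and 45 lower, and miR-30e-5p (-0.24) also passed, giving 5 lower. With DESeq2 size factors miR-30b-5p (-0.24, adjusted p = 0.0533) no longer passed, giving 3. All 7 ratios were negative under each of these scalings.

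The 5p members had similar ratios. Among strands with at least 100 counts in each library, the 5 miR-30 strands spanned 0.19 on the log2 scale (from -0.26 to -0.07, SD 0.07). The 73 miRNAs at that depth spanned 2.30 with an SD of 0.42. The 44 of these that are 5p strands, as all 5 miR-30 strands are, had the same span and a median of -0.12, close to the -0.14 of the miR-30 strands. Among other families, 8 let-7 5p strands spanned 0.79, 3 miR-181 5p strands 0.86 and 2 miR-26 5p strands 0.38. With let-7d-3p (0.51), the only let-7 3p strand at this depth, let-7 spanned 1.46. The lists differ in size, and the differences between the spans were not tested.

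Ratios taken within a library do not depend on scaling, and they were close in both. miR-30a-5p to miR-30d-5p was 1.12 and 1.10, and miR-30a-5p to miR-30c-5p was 5.66 and 5.70. miR-30a-5p to miR-30e-5p was 13.2 and 12.6, and miR-30c-5p to miR-30e-5p was 2.33 and 2.21. For the 7 pairs of 5p strands computed, the 95% interval of the change in ratio from replicate 1 to replicate 2 included 1. It was narrowest for miR-30a-5p to miR-30d-5p, at 0.978 (0.949 to 1.01), and widest for miR-30e-5p to miR-30b-5p, at 1.14 (0.968 to 1.35). As shares of the family, miR-30a-5p stood at 46.1% and 45.6%, miR-30d-5p at 41.1% and 41.6%, miR-30c-5p at 8.14% and, in replicate 2, 3835 of 47932 counts, miR-30e-5p at 3.49% and 3.62%, and miR-30b-5p at 0.990% and 0.899%, each with overlapping 95% intervals.

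**Figure D3:**
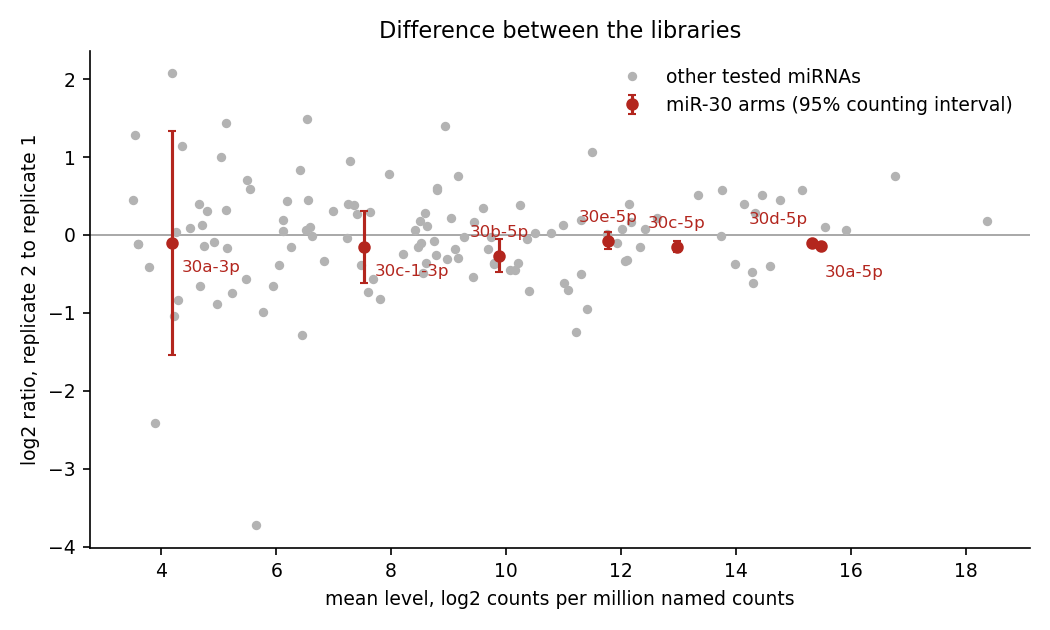
Log2 ratio of replicate 2 to replicate 1 at TMM library sizes against mean level (log2 CPM of named counts) for 131 tested miRNAs, with the 7 miR-30 strands in red and their 95% counting intervals. The red points lie between -0.26 and -0.07 over the whole range of level, inside a wider grey cloud.

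The listed sequences were last compared with RefSeq, in which Mir30a, Mir30c-1, Mir30c-2 and Mir30e had entries. The 5′ end of every listed strand at these hairpins was the RefSeq one, except in the single miR-30c-5p count at Mir30c-1, so the seeds listed at these hairpins are those of RefSeq. Over all named loci that matched RefSeq, the 5′ end was the same in 89.6% of 144 in replicate 1 and 89.4% of 160 in replicate 2. At the 3′ end the miR-30 5p strands were longer than RefSeq, by 2 bases in miR-30a-5p and miR-30e-5p and by 1 in miR-30c-5p, in both libraries, while 36 of 144 and 40 of 160 of all matched loci were longer. Those loci mix 5p and 3p strands, so they are not a like background for the 5p strands. The 3p strands were shorter in miR-30a-3p (by 2), miR-30e-3p (by 3) and miR-30c-2-3p (by 3 and 5), and miR-30c-1-3p had the RefSeq length.

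The listed hairpins also held letters that differ from the reference just past the end of the 5p strand. Mir30a is shown as the most counted case, as the stretch in RefSeq and as listed in each library, with the bases that differ in capitals.
Mir30a RefSeq against replicate 1: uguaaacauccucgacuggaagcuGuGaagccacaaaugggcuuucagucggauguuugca
Mir30a listed in replicate 1: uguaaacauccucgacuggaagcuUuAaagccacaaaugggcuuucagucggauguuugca
Mir30a listed in replicate 2: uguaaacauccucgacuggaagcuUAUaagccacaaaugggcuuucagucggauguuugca

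With positions counted from 1 at the 5′ end of the RefSeq hairpin, these were G30U and G32A in replicate 1 and G30U, U31A and G32U in replicate 2. Mir30c-2 differed at the matching places, by G38U and G40U in replicate 1 and by G38U, U39A and G40U in replicate 2, and also by U73A at its 3′ end in both. Mir30e differed by G41U alone in both libraries. In each of the 3 hairpins the first base after the listed 5p strand was a G in RefSeq and a U in the files. The Mir30c-1 hairpin listed with miR-30c-1-3p, which shares the miR-30c-5p sequence, had 0 differences in both libraries.

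Such differences were common in these files. Of 78 listed 5p strands with a RefSeq hairpin in replicate 1, 76.9% had at least 1 differing letter, and of 85 in replicate 2, 78.8% had. In those loci 94.1% and 95.3% of the differing letters were a U or an A in the files, and 89.0% and 85.8% lay in the 6 bases after the strand. The files do not state how the hairpin letters were made, and the cause of the differences was not tested.

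**Figure D4:**
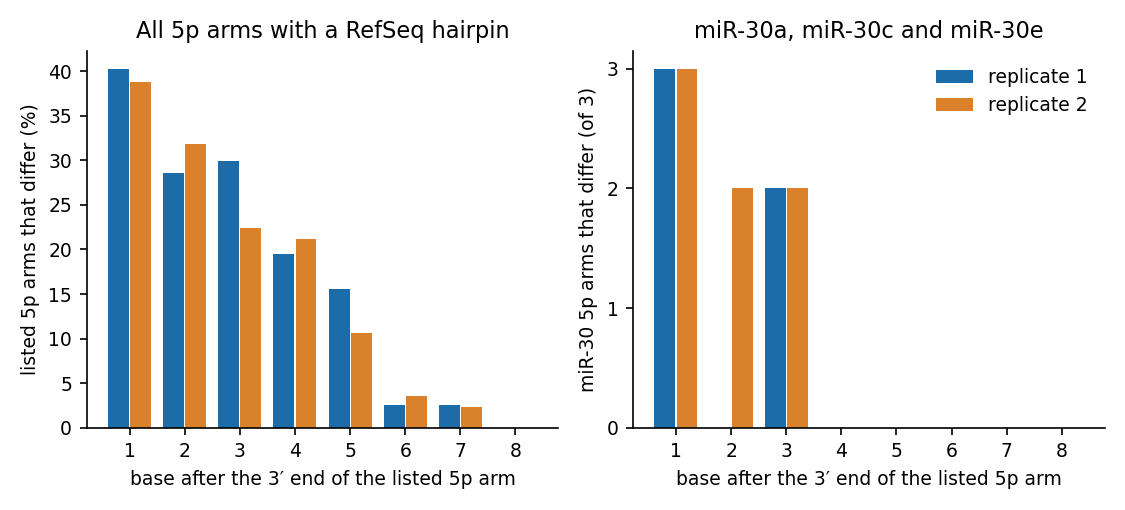
Listed hairpin letters that differ from RefSeq at each of the first 8 bases after the 3′ end of the listed 5p strand, as the percent of listed 5p strands with a RefSeq hairpin (left; 77 in replicate 1, without the single miR-30c-5p count at Mir30c-1, and 85 in replicate 2) and as the number of miR-30a-5p, miR-30c-5p and miR-30e-5p (right), by library. At the first base 40.3% and 38.8% of these 5p strands differ, and all 3 miR-30 strands do in both libraries.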

How the data were processed

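Small RNA from fed liver was sequenced in 1 group of 2 libraries. The authors deposited raw read counts per called miRNA locus, with positions, mature and hairpin sequences and annotation, per the file headers. Bowtie 1.0.1, cutadapt 1.5, FastQC 0.11.2 and GRCm38 appear in the submitters' processing notes. The program that called loci, its filters and its treatment of reads with several matches are unknown, as the sources used here do not give them. Loci without a miRNA name (5.02% and 2.46% of listed counts) stayed out of totals and tests. File positions count from 0 and were raised by 1.

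A name listed at more than 1 locus was represented by its most counted one. Shares carry Clopper-Pearson 95% intervals. All miRNAs that both libraries list, with a sum of at least 10 counts, were tested between libraries by a 2-sided exact binomial test at TMM sizes (edgeR 4.0.16), Benjamini-Hochberg adjusted over all, with a threshold of 0.05 and a prior count of 0.5 in log2 ratios. Its counting SE is Poisson. The test was tried on simulated Poisson counts with known changes and known library sizes. Those counts had no spread between replicates beyond counting, and changes larger than those of the miR-30 strands. That trial therefore does not bear on the miR-30 calls. With 1 group, no quasi-likelihood test was possible. Arms were tested by exact binomial and Fisher's exact tests. Alternatives were library totals, DESeq2 1.42.0 size factors, other count minimums, unlisted miRNAs as 0, loci summed, another denominator, a prior count of 2 and each library alone. Sequences for comparison came from RefSeq (GRCm38.p6) and annotation from GENCODE M21. Mir30b and Mir30d were compared only through the deposited sequences.

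The miRNAs named are all members, others with the same seed, the 2 nearest in level outside the family to each member with at least 100 counts in each library, and loci within 10 kb of a hairpin. Some markers of the tissue check are named as well. The members, lists and tests were chosen with earlier results of these data known.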

Additional observations from a re-analysis of the deposited data

How the results depend on the processing

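The family's share of 9.89% lay between 8.91% and 10.9% with either library alone, and at 9.48% of all listed counts and 9.86% with loci summed. With miR-30c-5p counted on chromosome 4, or left out of both loci, the chromosome 1 locus held 4.54%, and counting it on chromosome 4 gave that locus 1.17%; both settings were added after seeing the data. Counts of miR-30 strands that differed between libraries stayed between 3 and 5 over the alternatives. miR-30b-5p did not pass with DESeq2 size factors (-0.24), with no count minimum (-0.23) or with at least 50 counts summed (-0.21), and miR-30e-5p passed only with library totals (-0.24). Among the values recomputed under an alternative, another 44 log2 ratios kept their direction and side of the threshold. A further 62 shares moved by less than 1 SD, and 14 counts of strands or hairpins stayed within 1.5 times. For shares from each library alone that outcome was fixed in advance. With 2 libraries, each always lies within 1 SD of their mean. The adjusted p-values could not change with a prior count of 2, which enters the log2 ratios only. Nor could the 5p share of a hairpin change with the count minimum. With 5p strands only, also added after seeing the data, the let-7 span fell from 1.46 to 0.79. The number of all miRNAs that differed ranged from 55 to 76. No paired analysis was possible because there is 1 group. Depth limits the 3p strands of Mir30a, Mir30e and Mir30c-2, which had at most 9 counts.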

Other observations

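Folded from the letters in the files (RNAfold 2.7.2), the 6 miR-30 hairpins had minimum free energies from -24.3 kcal/mol for Mir30c-1 to -32.0 kcal/mol for Mir30a in replicate 2. The differing letters past the 5p strand moved the value of Mir30a from -29.9 kcal/mol in replicate 1 to -32.0 in replicate 2, and that of Mir30c-2 from -28.3 to -24.9. Mir30e, Mir30d, Mir30b and Mir30c-1 had the same value in both libraries (-30.9, -28.8, -26.2 and -24.3 kcal/mol). The order of these energies did not follow that of the counts, since Mir30e had a lower energy than Mir30d and fewer counts. Mir30e as folded held a letter that differs from RefSeq, and Mir30d was not compared with RefSeq. The order therefore holds for the listed letters only.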
